A study of Mus musculus with 3 samples.

Results

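Bcl6, Prdm1, Bach2, Ascl2, Tox, Tox2 and Pou2af1 encode transcription regulators that act for or against the follicular helper fate of CD4+ T cells. These 7 genes, of 19935 genes with a usable probe set, were chosen by name, and each was read from the probe set that the platform annotation assigns to that gene symbol alone. Each had 1 such probe set. RNA came from naive CD4+ T cells of wild-type C57BL/6 mice that were 8 weeks old. The medium group received vehicle, the IL-21 group received the cytokine IL-21, and the IL-6 + TGFb1 group received IL-6 together with TGFb1. Each group was measured on 1 array, 3 in all without replicates, so the values carry no replicate error and no difference was tested. Time in culture, cytokine doses, T cell receptor stimulation and the number of mice behind each culture are not in the labels.

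Follicular helper T cells enter B cell follicles and help B cells in germinal centres. Bcl6 is the repressor that defines them, and Blimp-1, the product of Prdm1, is its antagonist: each represses the gene of the other, and Blimp-1 turns cells towards other effector fates. IL-6 and IL-21 both signal through STAT3, and both are known to raise Bcl6 in CD4+ T cells. Bach2 restrains effector differentiation by occupying AP-1 sites, Ascl2 is a basic helix-loop-helix factor that promotes Cxcr5, Tox and Tox2 are HMG-box factors, and Pou2af1 encodes the octamer coactivator OBF-1, which is best known from B cells.

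The 4 start-site windows of Bcl6, Prdm1 and Pou2af1 are printed here because Bcl6 and Pou2af1 differed most from medium and Prdm1 differed most between the treated cultures. They are RefSeq windows of assembly GRCm38.p6, each running from 250 bases before to 50 bases after an annotated start, 5′ to 3′ on the gene's strand. Capitals mark matches to any of 5 motifs, searched on both strands: the STAT site TTCNNNGAA, the Blimp-1 core GNGAAAGT, the AP-1 and Bach site TGANTCA, the E-box CAGCTG and the octamer ATGCAAAT. No stretch held overlapping matches.
Bcl6, outer start, chr16:23988803-23989102, minus strand: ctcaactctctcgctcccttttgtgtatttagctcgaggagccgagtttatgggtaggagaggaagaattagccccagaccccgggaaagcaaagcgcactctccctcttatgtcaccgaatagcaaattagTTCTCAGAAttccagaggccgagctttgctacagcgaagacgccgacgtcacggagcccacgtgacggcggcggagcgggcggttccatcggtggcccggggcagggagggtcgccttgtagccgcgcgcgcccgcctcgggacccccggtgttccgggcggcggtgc
Bcl6, inner start, chr16:23981234-23981533, minus strand: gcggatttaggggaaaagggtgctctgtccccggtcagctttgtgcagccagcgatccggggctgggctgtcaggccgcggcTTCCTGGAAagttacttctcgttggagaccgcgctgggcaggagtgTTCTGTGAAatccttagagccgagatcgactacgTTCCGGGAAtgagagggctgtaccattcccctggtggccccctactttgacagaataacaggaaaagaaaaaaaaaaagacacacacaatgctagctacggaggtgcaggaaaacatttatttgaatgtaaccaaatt
Prdm1, chr10:44458699-44458998, minus strand: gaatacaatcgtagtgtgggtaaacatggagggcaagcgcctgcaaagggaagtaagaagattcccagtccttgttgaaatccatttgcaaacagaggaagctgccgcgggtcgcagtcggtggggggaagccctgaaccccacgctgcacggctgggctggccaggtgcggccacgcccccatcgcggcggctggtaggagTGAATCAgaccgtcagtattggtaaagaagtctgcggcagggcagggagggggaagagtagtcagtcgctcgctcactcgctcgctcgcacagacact
Pou2af1, chr9:51213440-51213739, plus strand: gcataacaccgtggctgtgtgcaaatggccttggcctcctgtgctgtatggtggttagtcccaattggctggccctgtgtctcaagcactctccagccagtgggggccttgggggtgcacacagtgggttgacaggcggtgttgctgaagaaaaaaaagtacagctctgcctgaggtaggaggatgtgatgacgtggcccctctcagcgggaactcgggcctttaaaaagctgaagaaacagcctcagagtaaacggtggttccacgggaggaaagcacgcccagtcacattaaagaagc

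The table held 11 windows for 6 of the 7 genes. The capitals in both Bcl6 windows are STAT-site matches. The outer window holds 1, TTCTCAGAA, which begins 118 bases before the start. The inner window holds 3, and they begin 168, 122 and 88 bases before its start, as TTCCTGGAA, TTCTGTGAA and TTCCGGGAA. Of all 32851 windows, 8.30% hold at least 1 STAT-site match and 11 windows hold 3 or more, a count made after the matches in Bcl6 were seen. The Prdm1 window holds an AP-1 and Bach match, TGAATCA, which 7.81% of all windows hold. It begins 48 bases before an annotated start that lies inside the gene, not at its outermost start. The only other match among the genes was a STAT-site match in the Bach2 window, TTCGTTGAA, and that window also lies at an inner start. The windows of Pou2af1, Ascl2 and Tox2 hold none of the 5 motifs. For scale, the Blimp-1 core occurs in 4.21% of all windows, the E-box in 16.3% and the octamer in 1.74%. A match describes letters in these windows and is not a measured site, and the arrays do not tell which start a transcript came from.

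Values are probe set intensities on a linear scale, and differences are log2(intensity + 1) of one array minus another. An intensity of 187, the median of all values, was the brightness filter: a gene was compared when its highest array reached it, which 11003 genes did. Of the 7 regulators 6 passed. Bcl6, Bach2, Tox, Tox2 and Pou2af1 were at or above the filter on all 3 arrays, Prdm1 on the IL-21 array alone, and Ascl2 on none. The culture carried T cell transcripts: all 8 measured markers of CD4 T cells lay above the filter on every array, Cd4 reading 6858, 6765 and 6077 on the medium, IL-21 and IL-6 + TGFb1 arrays. Of the markers of other cell types, 1 of 8 B cell markers, Cd79b at 365 to 380, reached the filter. So did 1 of 2 CD8 markers, Cd8b1, and 2 of 4 plasma cell markers, Xbp1 and Sdc1. Cd8b1 was at 810 in medium, 731 under IL-21 and 616 under IL-6 + TGFb1 (-0.15 and -0.39 from medium). None of 5 myeloid markers and none of 3 NK cell markers reached the filter. The NK cell gene Klrd1 still read 66.0 in medium, 98.1 under IL-21 and 173 under IL-6 + TGFb1. In a culture measured as a whole, a change in the share of cells that carry a transcript and a change in its amount per cell cannot be told apart.

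**Figure D1:**
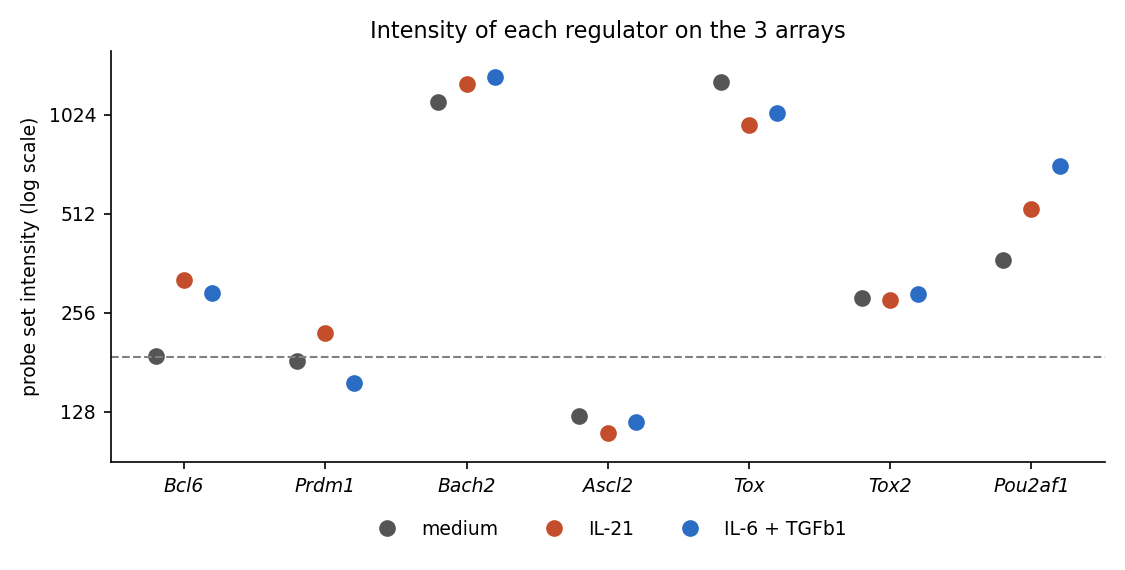
Probe set intensity (log axis) of each of the 7 regulators on the medium, IL-21 and IL-6 + TGFb1 arrays, 1 point per array. The dashed line is the brightness filter of 187. Bcl6 and Pou2af1 lie higher on both treated arrays than on the medium array, Tox lies lower, and Prdm1 lies higher only with IL-21. Heights of different genes are not comparable, since each probe set has its own response.

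Bcl6, the defining repressor of follicular helper cells, was at 188 in medium, 322 under IL-21 and 294 under IL-6 + TGFb1. It was lowest on the medium array, just above the filter, and the treated arrays were close to each other. It was 1.70-fold higher with IL-21 (log2 difference 0.77) and 1.56-fold higher with IL-6 + TGFb1 (0.64), and the treated arrays differed by 0.13. With IL-21, 118 of the 11003 compared genes, or 1.07%, had a higher difference than Bcl6. With IL-6 + TGFb1 it was 228 genes, or 2.07%.

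A yardstick for measurement error within the same arrays came from 474 genes read by 2 probe sets above the filter. In IL-21 minus medium the gap between the differences of such a pair had a median of 0.07 and a 95th percentile of 0.41. In IL-6 + TGFb1 minus medium these values were 0.07 and 0.37, and between the treated arrays 0.06 and 0.35. The yardstick leaves out the spread between cultures. It also pools genes of any brightness past the filter and was not matched to genes as dim as Bcl6 or Prdm1. The difference of Bcl6 was larger than the 95th percentile in both comparisons with medium and smaller than it between the treated arrays.

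Prdm1, which encodes Blimp-1, was at 183 in medium, 222 under IL-21 and 157 under IL-6 + TGFb1. The IL-21 array was the highest and the IL-6 + TGFb1 array the lowest, and the medium and IL-6 + TGFb1 values lay below the brightness filter. The difference from medium was 0.28 with IL-21 and -0.22 with IL-6 + TGFb1, each within the yardstick's 95th percentile. Between the treated arrays Prdm1 was 1.41-fold higher with IL-21, a log2 difference of 0.50 that only 140 compared genes, or 1.27%, exceeded. That value was larger than the 95th percentile of 0.35, but Prdm1 entered the comparison through the IL-21 array alone. The differences of Bcl6 and Prdm1 from medium, which share the medium array, were thus 0.77 and 0.28 with IL-21 and 0.64 and -0.22 with IL-6 + TGFb1. The log2 difference of Bcl6 exceeded that of Prdm1 by 0.49 with IL-21 and by 0.87 with IL-6 + TGFb1.

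Pou2af1, the octamer coactivator gene, was at 371 in medium, 530 under IL-21 and 712 under IL-6 + TGFb1. The order of the cultures differed from that of Bcl6, with IL-6 + TGFb1 highest. It was 1.92-fold higher than medium with IL-6 + TGFb1 (0.94), where 94 compared genes, or 0.854%, had a higher difference, and 1.43-fold higher with IL-21 (0.51). Between the treated arrays it was lower with IL-21, at -0.43, and 115 compared genes, or 1.05%, lay lower still. All 3 differences were larger in size than the yardstick's 95th percentile in their comparison, but after quantile normalization the difference with IL-21 was 0.405, just within its 95th percentile of 0.414. Pou2af1 is abundant in B cells, so the B cell markers are set beside it: the summed intensity of the 8 measured markers was 1137 in medium, 1171 under IL-21 and 1165 under IL-6 + TGFb1. Of these 8, only Cd79b reached the filter, so the sum holds mostly dim values and does not measure B cell content. The others went several ways below the filter: Ebf1 was at 85.7, 111 and 106 (0.37 and 0.31), Ms4a1 at 102, 115 and 98.7, and Pax5 at 170 on each array. Of the plasma cell genes, Jchain, at 57.4, 58.9 and 57.2, and Tnfrsf17, at 99.4, 99.4 and 104, were below the filter. Xbp1 was at 7555, 7410 and 6613 (-0.03 and -0.19), and Sdc1 was at 240, 242 and 223 (0.01 and -0.11).

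Tox, an HMG-box factor induced by T cell receptor signals, was at 1290 in medium, 951 under IL-21 and 1034 under IL-6 + TGFb1. It was the only regulator above the filter that was lower on both treated arrays. The difference was -0.44 with IL-21, where 142 compared genes, or 1.29%, lay lower, and -0.32 with IL-6 + TGFb1, where 337 genes, or 3.06%, did. Only the former was beyond the yardstick's 95th percentile, and narrowly: it was -0.37, within 0.41, with each array centred on its median, while the latter was -0.39, beyond 0.37, after quantile normalization. Tox2, its relative, was at 284, 281 and 293 on the medium, IL-21 and IL-6 + TGFb1 arrays. These values were nearly level: the differences from medium were -0.02 with IL-21, a sign that changed with the processing (0.05 with each array centred on its median), and 0.04 with IL-6 + TGFb1. The log2 difference of Tox lay below that of Tox2 in both comparisons with medium, by 0.42 and 0.36 in that order.

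Bach2, the repressor that competes for AP-1 sites, was at 1115 in medium, 1266 under IL-21 and 1328 under IL-6 + TGFb1. Both treated arrays were somewhat higher, at 0.18 and 0.25, but 21.0% and 14.4% of compared genes had higher differences, and both values were within the yardstick. Ascl2, which promotes Cxcr5 expression, was at 124, 110 and 119 in the same order. All 3 values were below the brightness filter, so its differences from medium of -0.17 and -0.06 are poorly measured.

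Counted at 1.5-fold, 1 of the 7 regulators was higher with IL-21, namely Bcl6, where 2.04% of compared genes were, and none was lower, where 0.5% were. With IL-6 + TGFb1, Bcl6 and Pou2af1 were at least 1.5-fold higher, 2 of 7 against 2.61% of compared genes, and none was lower against 1%. Between the treated arrays none passed 1.5-fold in either direction, where 0.927% of compared genes were higher and 0.527% lower with IL-21. At 2-fold none of the 7 passed in any of the 3 comparisons. The share of compared genes past 2-fold in either direction was 0.591% with IL-21, 1.04% with IL-6 + TGFb1 and 0.464% between the treated arrays. With 7 genes these counts are small, and no test was made on them. The central 95% of compared genes ran from -0.35 to 0.54 with IL-21, from -0.35 to 0.59 with IL-6 + TGFb1 and from -0.29 to 0.35 between the treated arrays. Outside these ranges lay Bcl6 and Tox with IL-21, Bcl6 and Pou2af1 with IL-6 + TGFb1, and Prdm1 and Pou2af1 between the treated arrays. Prdm1 passed the filter through the IL-21 array alone, where it was highest, so the filter itself favours its place in that comparison.

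**Figure D2:**
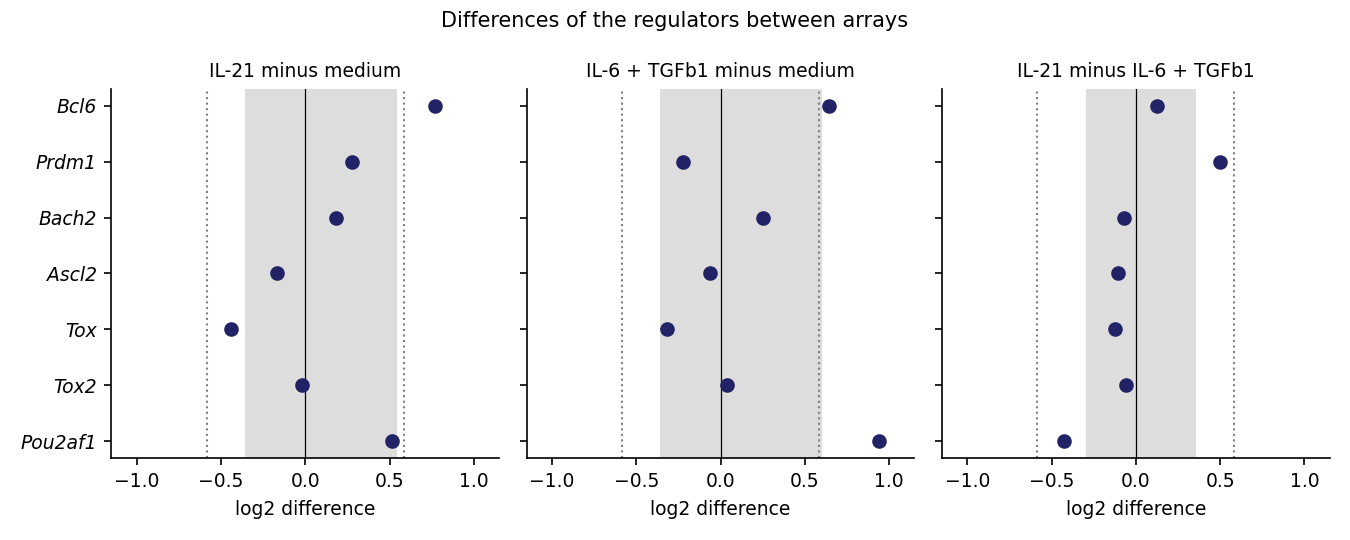
Difference in log2(intensity + 1) of the 7 regulators in each of the 3 comparisons, 1 point per gene. The grey band is the central 95% of the 11003 compared genes and the dotted lines mark 1.5-fold. Bcl6 lies to the right of the band in both comparisons with medium (0.77 and 0.64), while Prdm1 (0.50) and Pou2af1 (-0.43) lie outside it between the treated arrays. Prdm1 passed the brightness filter on the IL-21 array alone.

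The genes whose profile over the 3 arrays was most like a regulator's were found by the Euclidean distance between centred log2 profiles, for the regulators past 1.5-fold. Nearest to Bcl6 were Etv6 (distance 0.01), at 1446 in medium, 2450 under IL-21 and 2238 under IL-6 + TGFb1, then Armcx3 (0.01) and Map3k20 (0.01). Nearest to Pou2af1 were Smad3 (0.02), at 921, 1302 and 1742 in the same order, then Egln3 (0.02) and Trim13 (0.03). With only 3 arrays many genes are alike: 25 compared genes lay within a distance of 0.1 of Bcl6 and 16 within 0.1 of Pou2af1.

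The other genes of the follicular helper pathway were read from 11 lists, some of which share genes. Of the 13 surface and cytokine genes, 10 were above 0 with IL-21 and 3 below (median 0.07), while 4 were above and 9 below with IL-6 + TGFb1 (median -0.11). Over all compared genes the medians were 0.04 and 0.02, with 59.8% and 56.3% of genes above 0. Leaving out genes with equal values, 67.6% were higher with IL-21 and 60.6% with IL-6 + TGFb1. These shares were 45.5% and 48.7% after quantile normalization, and 82.2% and 68.8% with arrays centred on the median. Counts of list genes above 0, here and below, thus depend on the normalization. Il21, the helper cytokine gene, was at 43.0 in medium, 1780 under IL-21 and 3073 under IL-6 + TGFb1. It was the only gene of the list past 1.5-fold above medium in either culture, and its medium value was dim. Cxcr5, the chemokine receptor that guides cells into the follicle, was at 214, 209 and 164, with differences of -0.03 and -0.39. Its value with IL-6 + TGFb1 was below the brightness filter.

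Pdcd1, which encodes the inhibitory receptor PD-1, was at 1162, 1190 and 1144, and the costimulator gene Icos was at 5154, 5266 and 5001, so the 3 arrays were nearly level for both. Slamf6, an adhesion receptor of the SLAM family, was at 3924 in medium, 4122 under IL-21 and 1940 under IL-6 + TGFb1. Tnfsf8, which encodes the CD30 ligand, was at 694, 769 and 314. For both genes the IL-6 + TGFb1 array alone was low, at -1.02 and -1.14 against medium, and these were the genes of the list past 2-fold on the lower side. Cd84, another SLAM family gene, was at 877, 1215 and 811, and the inhibitory receptor gene Btla was at 1798, 2223 and 1626. Both were highest with IL-21, by 0.58 and 0.45 over IL-6 + TGFb1.

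Of 10 measured regulators that favour the fate, 9 were above 0 with IL-21 and none below (median 0.26). With IL-6 + TGFb1, 8 were above and 2 below (median 0.28). These counts and medians include Id3 (0.39 and 0.31), an E protein inhibitor like Id2, which is listed as opposing the fate. The place of Id3 on the favouring side is therefore uncertain. Maf, which drives Il21 transcription, was at 273 in medium, 296 under IL-21 and 1865 under IL-6 + TGFb1, so it was high in the latter culture alone. Egr2, induced by T cell receptor signals, was at 890, 1405 and 1067, with differences from medium of 0.66 and 0.26. Nfatc2, a calcium-dependent factor, was at 738, 1048 and 1173 (0.51 and 0.67). Stat3, the signal transducer of both IL-6 and IL-21, was at 3455, 4332 and 4274, and Batf, an AP-1 factor, was at 1121, 1544 and 1431. Both were lowest with medium. Between the treated arrays they differed by only 0.02 and 0.11, within the yardstick's 95th percentile of 0.35. Lef1, a factor upstream of Bcl6, read 3756 in medium, 3756 under IL-21 and 3761 under IL-6 + TGFb1.

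Genes that oppose the fate also lay mostly above medium: 9 of 10 with IL-21 (median 0.16) and 7 of 10 with IL-6 + TGFb1 (median 0.18). Of all compared genes, 59.8% and 56.3% lay above medium in that order. The IL-21 median of the list was 0.08 after quantile normalization. Id2, an inhibitor of the E proteins that Ascl2 pairs with, was at 1682 in medium, 2900 under IL-21 and 3319 under IL-6 + TGFb1 (0.79 and 0.98). Il7r, the receptor gene for a survival cytokine of naive and memory cells, was at 989, 1481 and 1827 (0.58 and 0.89). Foxo1, which restrains Bcl6, was at 1572, 1726 and 2068 (0.13 and 0.40). All 3 were lowest with medium and highest with IL-6 + TGFb1. They were named for the largest differences from medium, and other genes of the list had other orders. Of 6 measured homing genes of cells outside the follicle, 4 were above 0 in each culture. S1pr1, the receptor for exit from lymphoid tissue, was at 273, 393 and 595 (0.52 and 1.12), and Cxcr3, a receptor of inflamed tissue homing, was at 684, 1340 and 1031 (0.97 and 0.59). Gpr183 was higher in both (0.38 and 0.41), and Ccr7, the T zone receptor gene, was at 6927, 6060 and 6681.

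**Figure D3:**
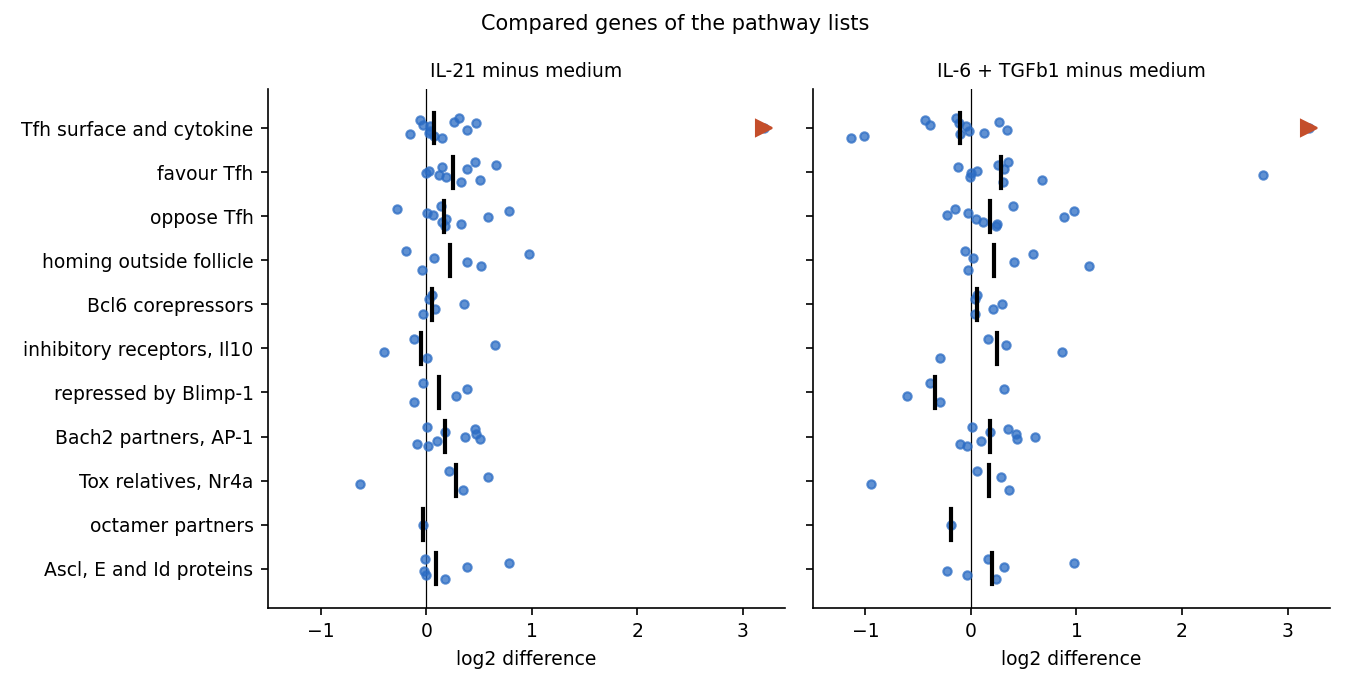
Log2 difference from medium of each compared gene in the 11 pathway lists, with IL-21 on the left and IL-6 + TGFb1 on the right. Each point is a gene, the black bar is the list median, and the red triangle marks Il21, whose differences of 5.34 and 6.13 lie beyond the axis. The list medians lie between -0.34 and 0.28, and the point far to the right in the list of favouring regulators with IL-6 + TGFb1 is Maf (2.77).

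The corepressors that Bcl6 recruits differed little. Of 5 measured genes, 4 were above 0 with IL-21 and 5 with IL-6 + TGFb1, with a median of 0.06 in each, and none passed 1.5-fold. The IL-21 median was -0.04 after quantile normalization. The largest differences were those of Hdac4, a histone deacetylase gene (0.35 and 0.30), followed by Hdac5 (0.08 and 0.21) and Bcor (0.06 and 0.06).

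Genes tied to Blimp-1 went several ways. Of 4 compared genes that Blimp-1 represses, 2 were above 0 with IL-21 (median 0.12) and 1 with IL-6 + TGFb1 (median -0.34). Il2, the gene of the growth cytokine that opposes Bcl6, was at 2445 in medium, 2963 under IL-21 and 1604 under IL-6 + TGFb1. Id3 was at 376, 492 and 466. Between the treated arrays all 4 were higher with IL-21 (median 0.26), where 44.7% of compared genes were above 0 (median 0). Id3 differed by only 0.08, and Ciita, which was below the filter, by -0.03. The list median was 0.18 without a brightness filter and 0.53 under a stricter one. Prdm1 was also higher with IL-21, and a link with these genes was not tested. Of 4 compared genes in the inhibitory receptor and Il10 module of Blimp-1 and c-Maf, 2 were above 0 with IL-21 (median -0.05, and 0.01 with arrays centred on the median) and 3 with IL-6 + TGFb1 (median 0.25). Lag3 was at 630, 991 and 794, Tigit at 1006, 1011 and 820, and Pdpn, which encodes podoplanin, at 239, 181 and 436. Pdpn was thus lowest with IL-21 and highest with IL-6 + TGFb1. Il10, the anti-inflammatory cytokine gene, was at 90.8, 155 and 146, below the filter on every array.

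Of 9 compared relatives, partners and competitors of Bach2, 8 were above 0 with IL-21 and 7 with IL-6 + TGFb1, with a median of 0.18 in each. The AP-1 genes Jun, at 629, 810 and 957, and Junb, at 687, 975 and 929, were lowest with medium, as was Hmox1, a target that Bach factors repress, at 434, 602 and 583. Bach1, the paralog of Bach2, was level at 291, 294 and 294. Among 4 compared relatives of Tox and Nr4a genes, which act with Tox downstream of NFAT, 3 were above 0 in each culture. Nr4a3, an orphan nuclear receptor gene, was at 2496, 1609 and 1296 (-0.63 and -0.95), and so was lower in both treated cultures, as Tox was. Nr4a2 went the other way, at 415, 621 and 507, and Tox4 was at 1371, 1739 and 1765. Pou2f2, which encodes an octamer factor that Pou2af1 binds, was at 366, 357 and 320, and Spib, at 122, 116 and 121, was below the filter. Of 6 measured E and Id protein genes, 3 were above 0 with IL-21 and 4 with IL-6 + TGFb1, with medians of 0.09 and 0.20, and Tcf4, an E protein gene, was at 312, 353 and 367.

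The regulators' differences were recomputed under 8 other processing settings. Each regulator had 1 probe set and no value below the raised floor of 69.0. The probe set rules, the raised low values and the brightness filters therefore could not change a difference. Only the added constant and the 2 normalizations could. That of Bcl6 from medium ranged from 0.72 to 0.83 with IL-21 and from 0.60 to 0.66 with IL-6 + TGFb1, and that of Pou2af1 from 0.41 to 0.58 and from 0.87 to 0.96. Tox with IL-21 ranged from -0.53 to -0.37. Prdm1, which reached the filter on the IL-21 array alone, ranged from 0.46 to 0.54 between the treated arrays. Bcl6 and Pou2af1 stayed on the same side of 1.5-fold in each comparison and setting in which they were compared, and Tox2 with IL-21 was the only difference of the 7 regulators that changed sign.

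**Figure D4:**
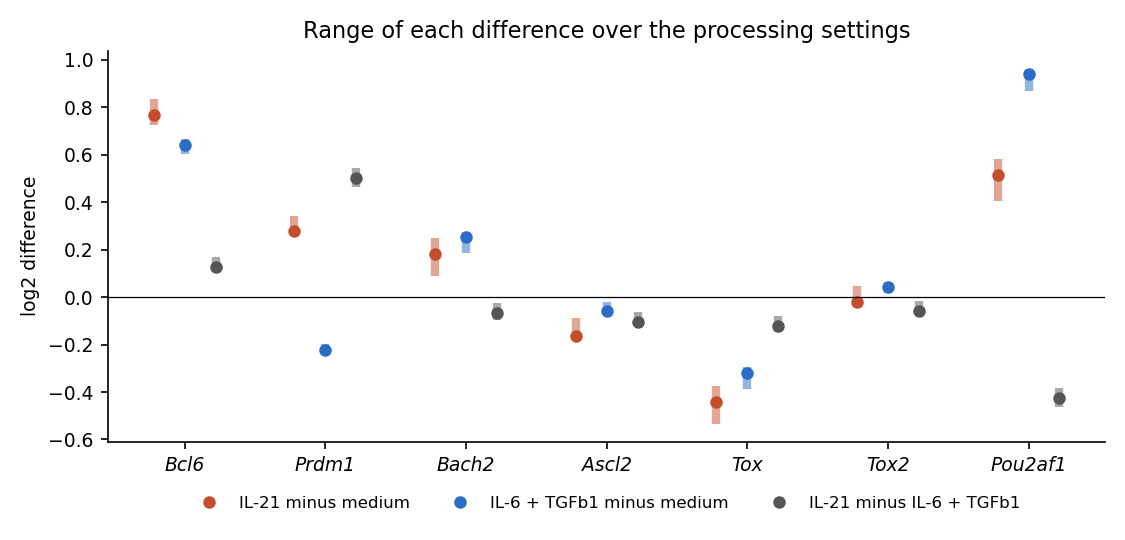
Log2 difference of each regulator in the 3 comparisons, as reported (points) and its range over the processing settings (bars). The stricter filter is left out for genes that failed it, and Ascl2 is drawn although it failed the main filter. The ranges are narrow beside the differences of Bcl6 and Pou2af1 from medium, and that of Tox2 with IL-21 crosses 0 (-0.04 to 0.05).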

How the data were processed

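Expression was measured on 3 Affymetrix arrays, 1 per culture condition. The deposited values are intensities of 28815 probe sets on a linear scale, a unit read from the values, and their medians were 191 (medium), 182 (IL-21) and 188 (IL-6 + TGFb1). RNA was fragmented and biotinylated with a whole-transcript kit, per the labels' protocols, and the genome build was mm8, per the submitters' processing notes. The summarization and normalization that the authors applied are not given in the sources used here, and no further normalization was applied.

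Groups were taken from the labels. Probe sets with exactly 1 gene symbol in the platform annotation (21780) were used, and the one with the highest mean stood for its gene. Values were compared as log2(intensity + 1) for genes whose highest array reached 187 (pandas 2.3.3, numpy 2.4.6). With 1 array per group no test, error or interval could be had, and the number of arrays limits the precision. The code was tested on simulated arrays. The regulators, the lists and the 5 motifs were chosen with earlier results of these data known.

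Named genes were the 7 regulators, up to 3 genes of each list with the largest difference from medium, and the 3 nearest profiles to each regulator past 1.5-fold. Cxcr5, Pdcd1, Icos, Cd84, Btla, Stat3, Batf, Lef1, Ccr7, Il10, Spib, Bach1 and Ciita were added from the lists for their roles or values after these were seen. Some listed genes are not reported here. Promoter windows came from RefSeq (GRCm38.p6), and Tox was not among those used. No protein sequence was used, so the planned comparison of Tox with Tox2 proteins was not made. Alternatives were another added constant, raised low values, 2 normalizations, 2 probe set rules and 2 brightness filters.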

Additional observations from a re-analysis of the deposited data

How the results depend on the processing

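A difference of a regulator was taken as moved when it shifted by more than the median gap between 2 probe sets of a gene (0.07, 0.07 and 0.06 log2 units in the 3 comparisons). Only the added constant and the 2 normalizations were able to shift a regulator's difference. By that rule quantile normalization alone moved any. It gave 0.088 for Bach2, -0.088 for Ascl2, -0.53 for Tox and 0.41 for Pou2af1 with IL-21, and 0.87 for Pou2af1 with IL-6 + TGFb1, with each sign as before. With the stricter brightness filter (785) only Bach2 and Tox of the 7 remained, so the counts past 1.5-fold from medium became 0 with IL-21 and 0 with IL-6 + TGFb1, because Bcl6 and Pou2af1 were no longer compared. The other settings left these counts as reported. Of the list medians, the stricter filter moved 11 of 30, no filter moved 7 of 33, quantile normalization 4 of 33 and the dimmest probe set 1 of 33. Of the 33 list medians, 10 changed sign in at least 1 setting: 6 with arrays centred on the median, 4 under the stricter filter, 2 after quantile normalization and 1 without a filter, some in more than 1 of these. In 3 cases the change of sign was larger than the median gap: the Bcl6 corepressors with IL-21 after quantile normalization (-0.04), the genes repressed by Blimp-1 with IL-21 without a filter (-0.03), and the Ascl, E and Id protein list with IL-6 + TGFb1 under the stricter filter (-0.04). No paired analysis was possible because each condition had 1 array. Ascl2, Prdm1 and Bcl6 on the medium array lay near or below the brightness filter, where intensities hold the least information.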
